A study of Solanum lycopersicum with 27 samples.

Results

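The comparison described here set unchilled tomato shoots against unchilled roots, in 3 libraries each, and covered the 18970 Solyc gene models (the gene identifiers of the tomato annotation) that were listed in both deposited expression tables, of 22007 listed in either. Members were taken by that rule alone, whatever their values. All plants were of the M82 cultivar of Solanum lycopersicum, grown for 18 days, first on plates and then in hydroponic solution, with 16 h of light at 24 °C and 8 h of dark at 20 °C. The first group was the shoot at time zero (T0), replicates 1 to 3, and the second was the root at T0, replicates 1 to 3. Both were taken 2.5 h after lights on, before any plant was moved to the cold, and each replicate was a pool of 4 seedlings. The same series holds 27 libraries, among them 3 further T0 shoot libraries and shoots and roots after 3 h at 24 °C or at 4 °C, which share no library with the 6 compared here but lie in the same tables. The study notes that 3 of the 6 T0 shoot libraries were of the batch of the 3 h samples and 3 of another batch, and the labels do not say which replicates these were.

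Shoots capture light and carbon dioxide in leaves, guard water loss with a waxy cuticle and build new leaves and stem from an apical meristem. Roots take up water, nitrate, phosphate, potassium and iron, and a barrier in their endodermis, the Casparian strip, forces solutes through cell membranes. Both organs carry a circadian clock, a loop of morning and evening factors that repress each other, which in leaves is set mainly by light. A bulk sample holds many cell types, and a lower value can mean fewer cells of a type or less RNA per cell, which cannot be told apart here.

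The authors normalised the shoot table and the root table separately, so no test was made across them and no p-value is given. The deposited values, which carry no read depth, were divided in each library by their sum over the 18970 common ids and are given as parts per 1000000 of that sum (ppm). They are not corrected for gene length. An id was called higher in an organ when the lowest of its 3 libraries was at least 2-fold above the highest of the other 3, on values plus 1 ppm. Ratios are log2 of the shoot mean plus 1 over the root mean plus 1. The organ and the table in which it was normalised cannot be told apart. The study sequenced its libraries in several batches, and its text does not give that of the root libraries. A batch may therefore coincide with the organ as well.

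By this rule 2119 ids were higher in shoots, 11.2% of the common ids, and 2530 were higher in roots, 13.3%. The other 14321 ids were not called in either direction. The shoot-high ids held 44.2% to 45.3% of the summed values of each shoot library and 2.94% to 3.25% of each root library. The root-high ids held 5.80% to 6.62% of each shoot library and 30.0% to 32.2% of each root library. Shoots put more of their total into few ids: the 100 ids of largest value made up 27.6% to 28.3% of the shoot libraries, against 16.4% to 16.8% of the root libraries. Since each library is divided by its sum, a larger share held by few ids lowers every other value of that library, and the median ratio over all common ids was -0.36. When libraries were scaled by the median ratio of their ids in place of the sum, the median moved by 0.35 to -0.01, and the split became 2677 ids higher in shoots (14.1%) and 1600 higher in roots (8.43%). All 2119 shoot calls and 1600 of the 2530 root calls were the same ids under both scalings. This overlap follows largely from the change of divisor, which raises shoot values against root values, and is no separate support for the calls. Every ratio below is read against the median of -0.36.

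**Figure D1:**
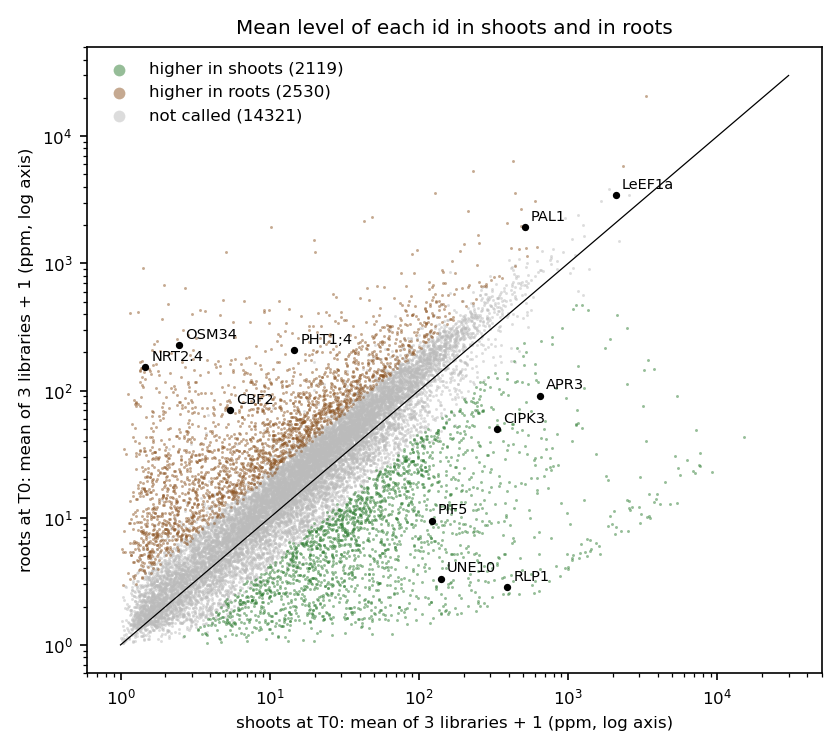
Mean level of each of the 18970 common ids in T0 shoots (horizontal axis) and T0 roots (vertical axis), both as ppm plus 1 on log axes. Green points are the 2119 ids higher in shoots, brown points the 2530 higher in roots, and grey points the 14321 not called, and most ids lie near the line of equal values while the shoot-high ids of largest value form a band at low root levels.

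The large differences were more often towards the shoot. A log2 ratio of at least 5 was found for 225 ids, and a ratio of -5 or lower for 120 ids. At a log2 ratio of at least 7 there were 78 ids, and at -7 or lower there were 13. Within an organ the libraries were close to each other. The median coefficient of variation was 6.45% in shoots and 8.04% in roots, over ids with a mean above 5 ppm in that organ. Replicate 3 stood apart in both organs: it differed by more than 2-fold from replicate 1 at 359 ids in shoots and at 505 ids in roots, while replicates 1 and 2 differed that much at 31 ids in shoots and at 32 in roots.

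The organ labels were checked with transcripts outside the rule. Plastid genes held 0.394% to 0.718% of the values in the 3 shoot libraries, and 0.0217% to 0.0250% in the 3 root libraries, each within its own table, where 136 of them are listed for shoots and 47 for roots. Over the 47 in both tables the shoot share was 0.384% to 0.705%. The other 3 T0 shoot libraries held 2.05% to 2.32%, and whether the batch has a part in this was not tested. The sources used here give a name to 717 of the common ids, mostly the symbol of the closest Arabidopsis gene, because these genes or their relatives answered to cold in this or an earlier study. Named ids were therefore not a sample of all ids. Of them, 81 were higher in shoots (11.3%) and 206 were higher in roots (28.7%), so a list of named genes is read against both shares. Most genes of the light-harvesting complexes, of carbon fixation and of chlorophyll synthesis carry no name in these sources and are not described by function.

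Among named genes with at least 10 ppm in the higher organ, the most shoot-biased was RLP1 (Solyc08g016310), named for an Arabidopsis receptor-like protein, with 495, 491 and 176 ppm in the shoot libraries, against 2.07, 2.97 and 0.550 ppm in the root libraries. Its log2 ratio was 7.08, and shoot replicate 3 was the lowest of the shoot libraries. UNE10 (Solyc01g090790), a bHLH factor of the phytochrome-interacting group, had 117, 132 and 168 ppm in the shoot libraries, against 1.90, 2.89 and 2.16 ppm in the root libraries, a log2 ratio of 5.40. PIF5 (Solyc07g043580), another factor that binds light-activated phytochrome, had 111, 111 and 141 ppm in the shoot libraries, against 9.76, 8.59 and 7.17 ppm in the root libraries. For both factors every shoot library was at least 10.4-fold above every root library, on values plus 1 ppm. PLP (Solyc01g010480) had 34.0, 36.4 and 71.5 ppm in shoots and 0.438, 0.710 and 0.483 ppm in roots. AMI1 (Solyc10g086170), an amidase that can form auxin, had 47.2, 45.9 and 47.9 ppm in the shoot libraries, against 0.521, 1.262 and 0.879 ppm in the root libraries. CRK10 (Solyc02g080070), a cysteine-rich receptor-like kinase, averaged 90.6 ± 16.7 ppm in shoots and 7.47 ± 0.701 ppm in roots (SD, n = 3 each here and below), and an unspecified bHLH factor (Solyc02g062690) 44.9 ± 8.76 ppm in shoots and 1.16 ± 0.203 ppm in roots.

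Further genes called higher in shoots act in Arabidopsis at the leaf surface or in leaf growth. MYB94 (Solyc02g067340), which in Arabidopsis activates wax synthesis, had 32.6, 31.2 and 37.8 ppm in the shoot libraries, against 0.882, 0.683 and 0.836 ppm in the root libraries. The other MYB94 id (Solyc03g116100), chosen after its values were seen, averaged 11.5 ± 3.61 ppm in shoots and 12.2 ± 6.15 ppm in roots and was not called. MYB16 (Solyc02g088190), a MIXTA-type factor of epidermal cell shape and cuticle, had 20.1, 22.2 and 23.6 ppm in the shoot libraries, against 0.411, 0.815 and 0.554 ppm in the root libraries. CER3 (Solyc03g117800), a wax alkane enzyme, had 8.15, 8.71 and 9.29 ppm in shoots and 1.18, 0.472 and 0.668 ppm in roots. The first MYB94 id, MYB16 and CER3 were higher in all shoot libraries than in any root library. TCP4 (Solyc12g014140), a factor that limits cell division in growing leaves, had 54.3, 59.5 and 69.9 ppm in the shoot libraries, against 2.53, 2.49 and 4.27 ppm in the root libraries, a log2 ratio of 3.93. Its relative TCP2 (Solyc08g048390) differed less, with 15.3, 17.0 and 19.8 ppm in shoots and 7.01, 6.62 and 6.67 ppm in roots, and it was not called when the other 3 T0 shoot libraries took the place of replicates 1 to 3. CIA2 (Solyc07g008540), a factor for chloroplast protein import in Arabidopsis leaves, had 37.88, 40.5 and 46.9 ppm in the shoot libraries, against 0.679, 0.919 and 1.32 ppm in the root libraries.

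The zinc finger-homeodomain genes of the homeobox list in both tables were HB34, HB30 and HB33. HB34 (Solyc02g067310) had 52.3, 62.4 and 60.8 ppm in the shoot libraries, against 0.619, 1.02 and 1.32 ppm in the root libraries, and HB30 (Solyc02g067320), the next id on chromosome 2, had 44.8, 46.9 and 50 ppm in the shoot libraries, against 1.69, 2.34 and 1.83 ppm in the root libraries. For both genes every shoot library was at least 13.7-fold above every root library, on values plus 1 ppm, though neighbouring relatives may share reads. HB33 (Solyc03g098060), chosen after its values were seen, averaged 10.6 ± 2.73 ppm in shoots and 0.435 ± 0.181 ppm in roots and was also higher in shoots. The homeobox family had 9 of 23 measured members higher in shoots and 1 higher in roots, with a median ratio of 0.63. This lean was not kept at 3 h in 24 °C, when 6 were higher in shoots and 5 in roots. HB6 (Solyc11g010270), an HD-ZIP factor, averaged 165 ± 22.1 ppm in shoots and 40.3 ± 5.46 ppm in roots. The single homeobox member that was root-high at T0 was HAT22 (Solyc04g077220), at 1.41 ± 0.478 ppm in shoots and 19.1 ± 9.43 ppm in roots. The bHLH family had 7 of 19 members higher in shoots and 3 higher in roots, among them bHLH093 (Solyc00g050430), at 8.09 ± 0.417 ppm in shoots and 65.6 ± 14.7 ppm in roots. The MYB family had 11 of 57 members higher in shoots (19.3%) and 10 higher in roots (17.5%), and 5 higher in roots under the other scaling. Against all named ids, at 11.3% and 28.7%, its share was larger in shoots and smaller in roots. At 3 h in 24 °C, 9 MYB members were higher in shoots and 17 in roots.

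**Figure D2:**
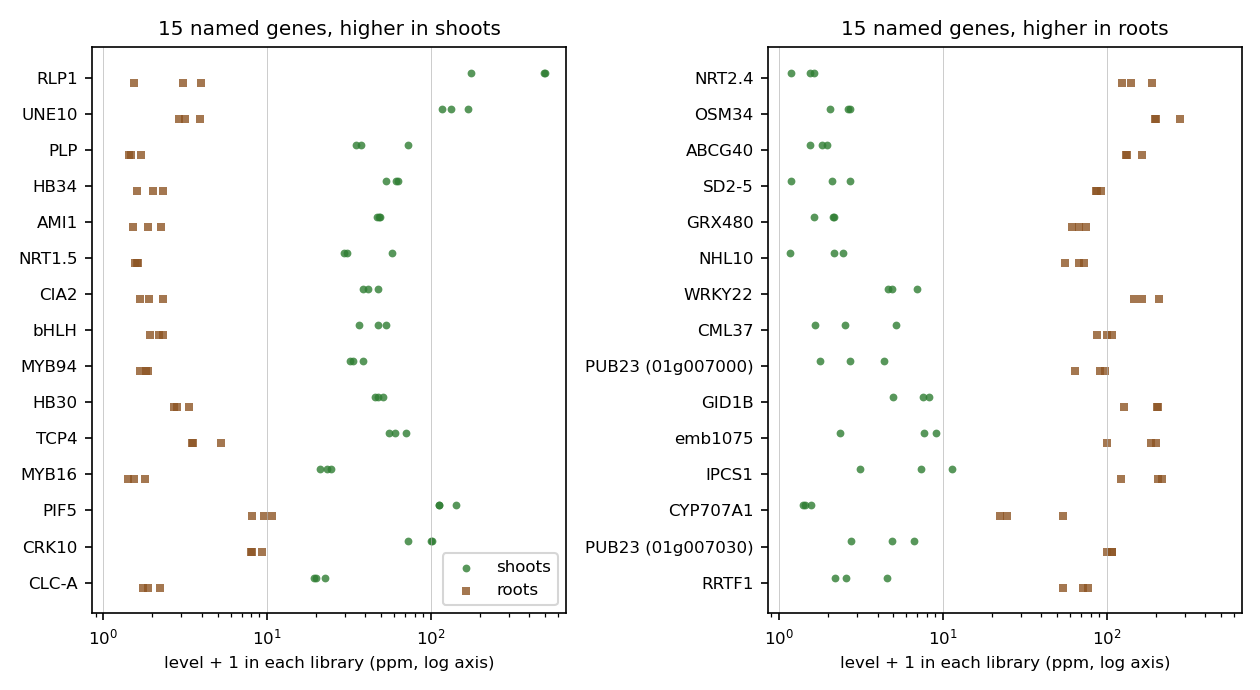
Levels in each T0 library, as ppm plus 1 on a log axis, of the 15 named genes with the highest and the 15 with the lowest ratio among called genes with at least 10 ppm in the higher organ. Green circles are the 3 shoot libraries and brown squares the 3 root libraries of each gene, and for all 30 genes the organs do not overlap, which the call itself requires.

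The list of light-linked factors, which holds phytochrome-interacting factors and B-box proteins, had 6 of 11 measured members higher in shoots and 2 higher in roots, with a median ratio of 2.02. COL4 (Solyc12g096500), a CONSTANS-like B-box factor, had 221, 222 and 229 ppm in the shoot libraries, against 43.6, 45.3 and 37.8 ppm in the root libraries. STO (Solyc06g073180), a B-box factor of light signalling, had 189, 195 and 209 ppm in the shoot libraries, against 50.3, 46.6 and 44.5 ppm in the root libraries. Of the 2 PIF1 genes, Solyc06g008030 averaged 37.3 ± 12.5 ppm in shoots and 8.46 ± 1.54 ppm in roots and was not called with the other T0 shoot libraries, while Solyc09g063010 averaged 12.3 ± 2.51 ppm in shoots and 2.12 ± 0.350 ppm in roots. The members on the other side were HY5 and STH2. HY5 (Solyc08g061130), a bZIP factor that promotes light-grown development, was higher in roots, with 6.12, 7.04 and 6.14 ppm in the shoot libraries, against 28.2, 29.1 and 15.4 ppm in the root libraries, but was not called under the other scaling. STH2 (Solyc04g081020), a B-box partner of HY5 in Arabidopsis, had 0.574, 0.735 and 1.42 ppm in shoots and 8.95, 9.61 and 10.9 ppm in roots. COL2 (Solyc02g089540) was not called, with 43.0, 45.4 and 78.3 ppm in shoots and 22.6, 19.4 and 7.61 ppm in roots, since the organs were less than 2-fold apart at their nearest libraries, and it was called under the other scaling.

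Meristem and leaf development factors had 3 of 7 measured members higher in shoots and 0 higher in roots. Besides TCP4 and TCP2 this was FUL (Solyc06g069430), a MADS-box factor, at 4.28 ± 0.802 ppm in shoots and 1.14 ± 0.281 ppm in roots, which like TCP2 was not called with the other T0 shoot libraries. The KNOX genes in both tables were not called: BP (Solyc04g077210) averaged 12.5 ± 0.686 ppm in shoots and 8.52 ± 2.096 ppm in roots, KNAT6 (Solyc05g005090) 3.23 ± 0.0961 ppm in shoots and 5.04 ± 1.17 ppm in roots, and KNAT7 (Solyc08g080120) 16.8 ± 0.605 ppm in shoots and 20.9 ± 0.497 ppm in roots. One gene named for a root factor was on the shoot side. SGR7 (Solyc08g014030), which the sources list under the Arabidopsis name SHR, a GRAS factor that patterns the root endodermis, had 16.7, 17.0 and 18.5 ppm in the shoot libraries, against 0.552, 0.920 and 1.21 ppm in the root libraries. JKD (Solyc10g084180), a C2H2 factor that acts with SHR in Arabidopsis roots, averaged 52.7 ± 3.93 ppm in shoots and 21.9 ± 5.64 ppm in roots and was called higher in shoots only under the other scaling.

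Genes for nutrient uptake were mostly higher in roots. Of 5 genes for nitrate transport and reduction, 4 were higher in roots and 1 in shoots. NRT2.4 (Solyc06g074990), a high-affinity nitrate transporter, had 0.188, 0.545 and 0.638 ppm in the shoot libraries, against 140.4, 123 and 189 ppm in the root libraries, and its log2 ratio of -6.70 was the lowest of all named genes. NRT1.1 (Solyc08g078950), a dual-affinity transporter and nitrate sensor, had 108, 99.7 and 125 ppm in shoots and 299, 288 and 685 ppm in roots, and it was no longer called under the other scaling. NIR1 (Solyc10g050890), nitrite reductase, had 53.0, 47.2 and 58.0 ppm in the shoot libraries, against 383, 346 and 450.4 ppm in the root libraries.

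The 2 genes that share the name NRT1.5, which in Arabidopsis loads nitrate into the xylem, went in opposite directions. Solyc08g007060 had 6.97, 8.11 and 10.1 ppm in the shoot libraries, against 100.8, 90.7 and 212 ppm in the root libraries. Solyc01g080870 had 28.8, 30.0 and 57.4 ppm in the shoot libraries, against 0.563, 0.631 and 0.620 ppm in the root libraries. Their log2 ratios were -3.85 and 4.63. CLC-A (Solyc02g094060), which stores nitrate in the vacuole, was also higher in shoots, with 18.3, 18.9 and 21.5 ppm in shoots and 0.893, 0.761 and 1.21 ppm in roots, and so was APR3 (Solyc02g080640), an enzyme of sulphate assimilation, with 679, 716 and 548 ppm in shoots and 91.3, 81.4 and 97.4 ppm in roots.

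All 4 genes for uptake of phosphate, potassium and iron in both tables were higher in roots. PHT1;4 (Solyc09g090070), a high-affinity phosphate transporter, had 13.9, 13.8 and 13.05 ppm in the shoot libraries, against 199, 180 and 239.8 ppm in the root libraries. The next id, PHT1;7 (Solyc09g090080), had 0.537, 0.717 and 0.288 ppm in shoots and 7.35, 9.64 and 11.2 ppm in roots. AKT1 (Solyc12g006850), a potassium channel of root uptake, had 3.51, 2.55 and 1.97 ppm in shoots and 12.8, 13.6 and 26.0 ppm in roots. FRO2 (Solyc01g094910), the ferric reductase of the root surface in Arabidopsis, had 8.88, 9.92 and 15.7 ppm in shoots and 54.4, 34.9 and 60.4 ppm in roots. FRO2 was not called under the other scaling, nor with the other 3 T0 shoot libraries, and it had the opposite call after 3 h at 24 °C. MYB36 (Solyc09g008250), the factor that switches on Casparian strip genes in Arabidopsis, had 1.43, 1.84 and 2.41 ppm in the shoot libraries, against 31.1, 30.4 and 17.7 ppm in the root libraries. The plastid share, 8 of the 9 nitrate and uptake genes and MYB36 lay on the side of the organ labels. The exceptions were one NRT1.5 gene and SGR7 on the shoot side, FRO2 at 3 h, and genes without a call. Among the latter was KCS1 (Solyc10g009240), of very-long-chain fatty acids for wax and suberin, at 7.03 ± 1.52 ppm in shoots and 12.6 ± 3.06 ppm in roots. ARF7 (Solyc05g047460), of the root development list, was not called either, at a log2 ratio of -0.17. Nor were the KNOX genes BP, KNAT6 and KNAT7 of the meristem list. Of the root factors, SCR, WOX5 and the PLT genes carry no name in the sources.

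**Figure D3:**
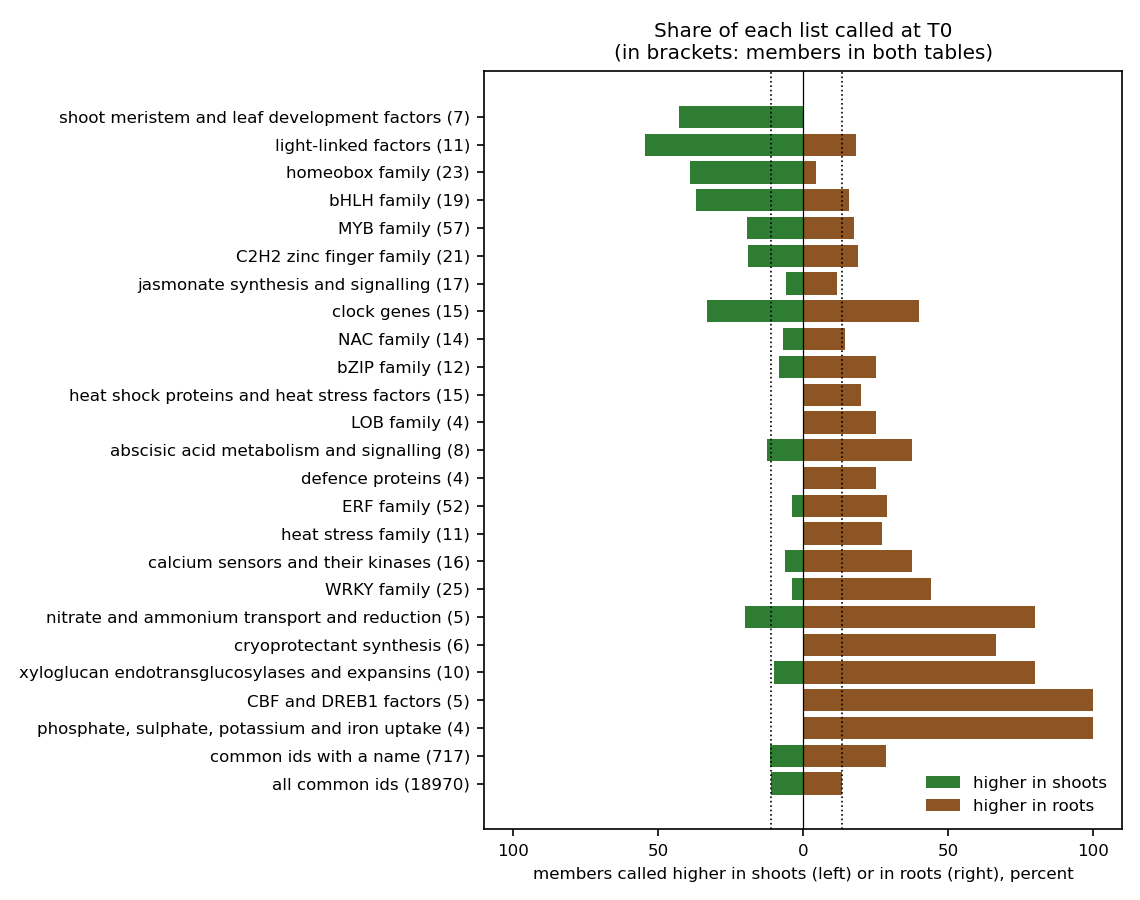
Share of the measured members of each gene list that was called higher in shoots (green, to the left) or in roots (brown, to the right), in percent, with the number of members in both tables in brackets. Dotted lines mark the shares over all common ids, 11.2% and 13.3%, and the row of named ids shows 11.3% and 28.7%.

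Enzymes that loosen cell walls, the xyloglucan endotransglucosylases and expansins, had 8 of 10 measured members higher in roots and 1 higher in shoots, with a median ratio of -2.34. EXLA1 (Solyc01g112000), an expansin-like protein, had 44.3, 40.5 and 45.2 ppm in the shoot libraries, against 368, 374 and 286 ppm in the root libraries. Of the 4 neighbouring ids on chromosome 3 named XTH23, the most root-biased was Solyc03g093130, with 16.7, 7.73 and 8.18 ppm in the shoot libraries, against 217, 186 and 284 ppm in the root libraries. The other 3 had mean levels of 26.8, 24.2 and 16.4 ppm in shoots and 188, 139.8 and 121 ppm in roots. Reads of such close copies may be divided between them, so the 4 are not 4 separate results. EXPA3 (Solyc09g010860), an expansin, was the shoot-high member, with 68.3, 76.3 and 80.7 ppm in the shoot libraries, against 6.93, 6.44 and 8.91 ppm in the root libraries.

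The other named genes of lowest ratio were of several kinds. OSM34 (Solyc08g080670), an osmotin-like antifungal protein, had 1.05, 1.64 and 1.71 ppm in the shoot libraries, against 200.2, 197 and 281 ppm in the root libraries. ABCG40 (Solyc08g067610), named for an Arabidopsis importer of abscisic acid, had 0.540, 0.842 and 0.965 ppm in the shoot libraries, against 163, 130.5 and 132 ppm in the root libraries. The second ABCG40 gene (Solyc09g091660) averaged 527 ± 271 ppm in shoots and 415 ± 51.8 ppm in roots and was not called, so the name alone did not give the organ. WRKY22 (Solyc10g011910), a factor of immune signalling, had 5.96, 3.62 and 3.91 ppm in the shoot libraries, against 164, 147 and 208 ppm in the root libraries. GRX480 (Solyc10g008150), a glutaredoxin, averaged 0.982 ± 0.299 ppm in shoots and 66.9 ± 6.77 ppm in roots, and NHL10 (Solyc10g081970) averaged 0.929 ± 0.678 ppm in shoots and 64.3 ± 8.95 ppm in roots. GID1B (Solyc09g074270), a gibberellin receptor, had 7.28, 6.53 and 3.95 ppm in the shoot libraries, against 203, 205 and 127 ppm in the root libraries. Both ids named PUB23, a ubiquitin ligase, were higher in roots, Solyc01g007000 at 1.955 ± 1.32 ppm in shoots and 83.3 ± 17.7 ppm in roots and Solyc01g007030 at 3.79 ± 1.99 ppm in shoots and 104.8 ± 4.32 ppm in roots. The other genes of this group were SD2-5, CML37, emb1075, IPCS1, CYP707A1 and RRTF1, with log2 ratios between -5.47 and -4.44.

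In abscisic acid metabolism, CYP707A1, the enzyme that degrades the hormone, was root-high in both copies, with 0.394, 0.450 and 0.564 ppm in shoots and 23.8, 21.2 and 53.1 ppm in roots for Solyc08g075320 and 36.1, 24.4 and 45.6 ppm in shoots and 141, 104.9 and 362 ppm in roots for Solyc08g005610. Root replicate 3 was the highest library of both copies, and the second was not called under the other scaling. NCED3 (Solyc07g056570), the enzyme of the committed step of abscisic acid synthesis, averaged 177 ± 40.7 ppm in shoots and 93.4 ± 17.0 ppm in roots, with all shoot libraries above all root libraries but less than 2-fold apart. Over the 8 measured genes of this pathway, 3 were higher in roots and 1 in shoots.

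The WRKY family had 11 of 25 measured members higher in roots and 1 higher in shoots, with a median ratio of -1.14, and 7 higher in roots and 2 in shoots under the other scaling. WRKY70 (Solyc09g015770) averaged 19.9 ± 8.78 ppm in shoots and 204 ± 58.8 ppm in roots and WRKY40 (Solyc03g116890), which lost its call under the other scaling, 67.2 ± 43.9 ppm in shoots and 533 ± 229 ppm in roots. The shoot-high member was WRKY58 (Solyc10g084380), at 46.1 ± 5.10 ppm in shoots and 3.99 ± 0.506 ppm in roots. The ERF family had 15 of 52 members higher in roots and 2 higher in shoots, with a median ratio of -1.24. Its root-high share, 28.8%, is that of all named ids, 28.7%. ERF13 (Solyc01g090340) was its most shoot-biased member, at 60.2 ± 6.44 ppm in shoots and 5.82 ± 2.17 ppm in roots. All the factor families counted here hold only members that the study picked for their change in the cold in these samples, so the counts are not independent of that choice. Among LOB-domain factors 1 of 4 was root-high, LBD41 (Solyc03g119530), with 11.7, 13.03 and 10.4 ppm in the shoot libraries, against 238, 192 and 145 ppm in the root libraries. Of the heat stress factors 3 of 11 were higher in roots (27.3%) and 0 in shoots, and of the wider list with heat shock proteins 3 of 15 (20%) and 0. These root-high shares, and the 25% of the LOB list, did not exceed that of all named ids.

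The C2H2 zinc finger family had 4 of 21 members higher in each organ, against 6 higher in shoots and 2 in roots under the other scaling, and 3 in shoots and 9 in roots after 3 h at 24 °C. The bZIP family had 1 of 12 higher in shoots and 3 in roots (25%). The NAC family had 1 of 14 higher in shoots and 2 in roots (14.3%). Both root-high shares were below the 28.7% of all named ids. Of 4 defence proteins, 1 was higher in roots, which was OSM34, and 0 in shoots. The lists for aquaporins, the Casparian strip, cuticle and wax, and root development had fewer than 3 members in both tables and give no count.

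Calcium sensors and the kinases they control, a list made with values of these data known, had 6 of 16 measured members higher in roots and 1 higher in shoots. CML38 (Solyc11g071740), a calmodulin-like protein, had 20.8, 10.8 and 7.62 ppm in the shoot libraries, against 279, 248 and 327 ppm in the root libraries. One CIPK11 gene (Solyc06g082440), a kinase bound by calcineurin B-like sensors, had 36.3, 28.1 and 15.8 ppm in the shoot libraries, against 625, 598 and 395 ppm in the root libraries, while the other (Solyc06g007440) averaged 103 ± 21.4 ppm in shoots and 140.2 ± 85.8 ppm in roots and was not called. CIPK3 (Solyc01g008850) was the shoot-high member, with 416, 376 and 199 ppm in the shoot libraries, against 47.2, 55.6 and 44.2 ppm in the root libraries. CAM5 (Solyc10g081170), a calmodulin, averaged 1117 ± 376 ppm in shoots and 1155 ± 142 ppm in roots.

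Jasmonate genes, a list also made with values known, mostly showed no call: 2 of 17 were higher in roots and 1 in shoots. AOS (Solyc04g079730), allene oxide synthase of jasmonate synthesis, had 103, 98.4 and 7.98 ppm in shoots and 222, 255 and 42.8 ppm in roots. LOX3 (Solyc03g122340), a 13-lipoxygenase, had 424, 436 and 132 ppm in shoots and 434, 428 and 495 ppm in roots. JAZ1 (Solyc03g122190), a repressor of jasmonate signalling that jasmonate itself induces, had 289.8, 277 and 56.5 ppm in shoots and 219.8, 267 and 69.1 ppm in roots. Replicate 3 was the lowest library at 13 of the 17 genes in shoots and at 12 of 17 in roots, against 30.3% and 28.9% of all common ids. The summed level of the list was 1509, 1482 and 526 ppm in the shoot libraries and 2489, 2667 and 1682 ppm in the root libraries. The calcium list behaved alike in shoots, with a sum of 2684, 2477 and 1507 ppm in the shoot libraries and 3923, 3748 and 3257 ppm in the root libraries. What set replicate 3 apart was not tested.

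**Figure D4:**
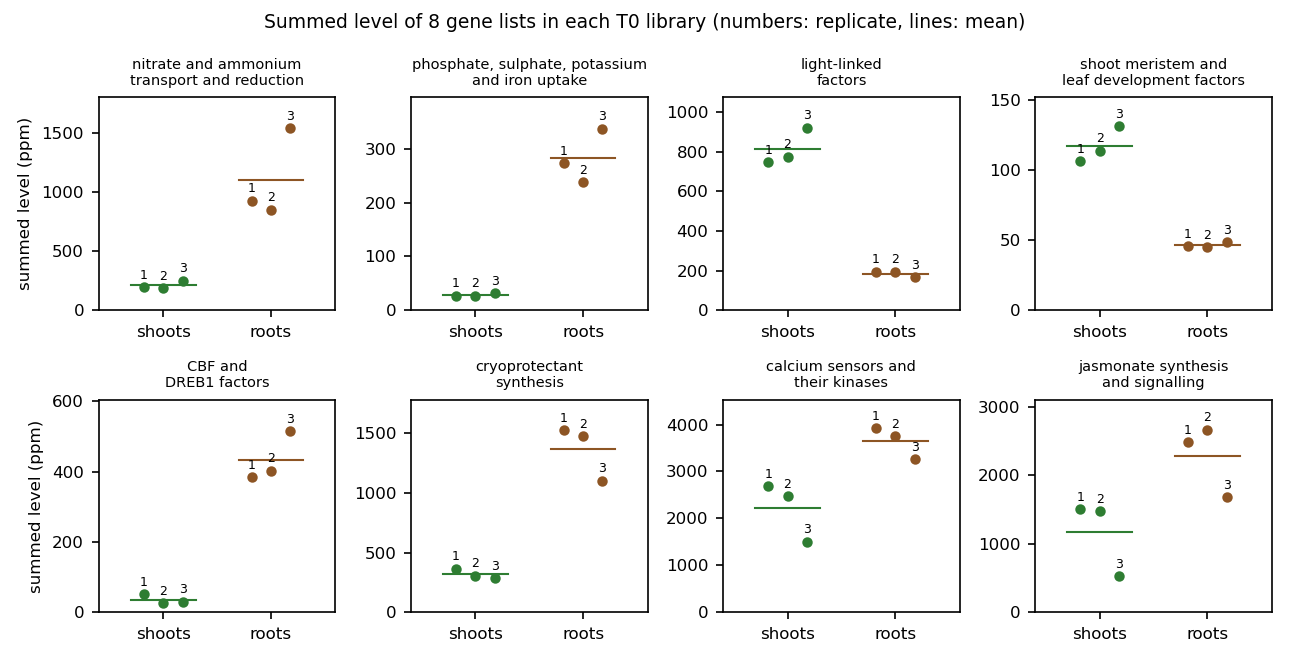
Summed level of 8 gene lists in each T0 library, in ppm from 0, with shoots on the left and roots on the right of each panel, the replicate number above each point and a line at the mean. Nitrate, uptake, CBF and cryoprotectant sums are higher in every root library, light-linked and meristem sums in every shoot library, and replicate 3 is the lowest jasmonate library in both organs.

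The clock genes differed in both directions. Of 15 measured ids, 5 were higher in shoots and 6 in roots. The shoot-high ids were morning factors. CCA1/LHY (Solyc10g005080), a MYB repressor that peaks near dawn, had 255, 261 and 255 ppm in the shoot libraries, against 98.3, 90.1 and 82.8 ppm in the root libraries. RVE8 (Solyc10g084370), a related activator, had 57.4, 62.5 and 62.2 ppm in the shoot libraries, against 12.8, 11.8 and 15.6 ppm in the root libraries. RVE6 (Solyc01g095030) averaged 43.9 ± 2.83 ppm in shoots and 16.3 ± 1.33 ppm in roots and RVE7 (Solyc03g098320) 67.2 ± 4.70 ppm in shoots and 15.4 ± 0.159 ppm in roots. PRR9 (Solyc10g005030), a morning pseudo-response regulator, had 89.4, 86.8 and 95.1 ppm in the shoot libraries, against 21.8, 20.6 and 38.0 ppm in the root libraries. PRR9 was not called with the other 3 T0 shoot libraries.

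The root-high ids described here were genes that act later in the day. The remaining root-high id was among RVE1, PRR5 and ELF4, for which no values are given, so this pattern is not stated for every root-high clock id. GI-1 (Solyc04g071990), a GIGANTEA gene, had 27.7, 28.2 and 28.6 ppm in the shoot libraries, against 196, 188 and 216 ppm in the root libraries, and GI-2 (Solyc12g056650) had 65.3, 69.1 and 68.3 ppm in the shoot libraries, against 214, 209 and 281 ppm in the root libraries. TOC1 (Solyc03g115770), an evening repressor, had 2.33, 2.31 and 1.67 ppm in shoots and 11.6, 14.1 and 10.5 ppm in roots. ELF3 (Solyc08g065870), of the evening complex, had 7.43, 8.20 and 8.52 ppm in shoots and 30.7, 30.7 and 24.5 ppm in roots. One LUX gene (Solyc06g076350), for another member of that complex, had 2.21, 1.91 and 2.18 ppm in shoots and 46.6, 44.8 and 31.4 ppm in roots, and the LUX gene of the study's clock set (Solyc06g005680) stayed under 1 ppm in all 6 libraries. PRR7 (Solyc10g086000) had 29.5, 31.0 and 30.8 ppm in shoots and 27.8, 26.1 and 33.9 ppm in roots, so the organs overlapped.

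Fewer clock genes were called after 3 h at 24 °C, in libraries that share none with T0: 2 of the 15 ids were higher in shoots and 2 in roots. CCA1/LHY then averaged 25.9 ± 1.85 ppm in shoots and 22.8 ± 1.29 ppm in roots, RVE8 8.38 ± 0.657 ppm in shoots and 7.35 ± 0.192 ppm in roots, GI-1 259 ± 15.3 ppm in shoots and 312 ± 3.58 ppm in roots and GI-2 438 ± 6.90 ppm in shoots and 418 ± 7.83 ppm in roots. None of the 4 was called at that time. TOC1 kept its call, at 4.06 ± 0.953 ppm in shoots and 23.7 ± 0.646 ppm in roots, and so did PRR9, at 81.2 ± 5.70 ppm in shoots and 16.4 ± 2.22 ppm in roots. After 3 h at 4 °C the order was as at T0: CCA1/LHY averaged 180.4 ± 12.4 ppm in shoots and 75.6 ± 3.60 ppm in roots, and GI-1 32.1 ± 0.891 ppm in shoots and 208 ± 1.56 ppm in roots. Only 1 time point per organ was available before the treatment, so a difference in level and a difference in phase cannot be told apart.

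All 5 genes of the CBF and DREB1 list were higher in unchilled roots, with a median ratio of -3.48. They encode AP2 factors, of which the CBF genes are known as regulators of the cold response. CBF1 (Solyc03g026270) had 3.68, 1.94 and 2.43 ppm in shoots and 15.2, 16.4 and 52.8 ppm in roots. CBF2 (Solyc03g124110) had 7.33, 2.38 and 3.43 ppm in shoots and 42.1, 40.0 and 125 ppm in roots. CBF3 (Solyc03g026280) had 11.5, 5.93 and 14.7 ppm in shoots and 43.4, 38.5 and 133 ppm in roots. Root replicate 3 was the highest for all 3 genes, and CBF3 was not called under the other scaling. DREB1D (Solyc08g007820) had 18.8, 10.6 and 6.78 ppm in the shoot libraries, against 154, 153 and 127 ppm in the root libraries, and the next id, DDF1 (Solyc08g007830), had 10.8, 5.77 and 3.03 ppm in the shoot libraries, against 130.3, 154 and 77.7 ppm in the root libraries.

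Both organs had lower levels after 3 h at 24 °C, each read within its own table. There CBF1 averaged 0.0252 ± 0.0405 ppm in shoots and 0.217 ± 0.1001 ppm in roots, CBF2 0.0252 ± 0.0405 ppm in shoots and 0.427 ± 0.362 ppm in roots, CBF3 0.389 ± 0.262 ppm in shoots and 1.503 ± 1.34 ppm in roots, DREB1D 2.26 ± 0.453 ppm in shoots and 0.740 ± 0.652 ppm in roots and DDF1 0.229 ± 0.249 ppm in shoots and 0.528 ± 0.713 ppm in roots. None of the 5 was called. After 3 h at 4 °C, CBF2 averaged 19.4 ± 2.25 ppm in shoots and 85.5 ± 7.31 ppm in roots and DDF1 8.79 ± 4.14 ppm in shoots and 164 ± 26.4 ppm in roots, and both were called higher in roots, while CBF3 averaged 174 ± 15.6 ppm in shoots and 232 ± 15.4 ppm in roots. The handling at harvest was not recorded per library, and its part in these values was not tested.

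**Figure D5:**
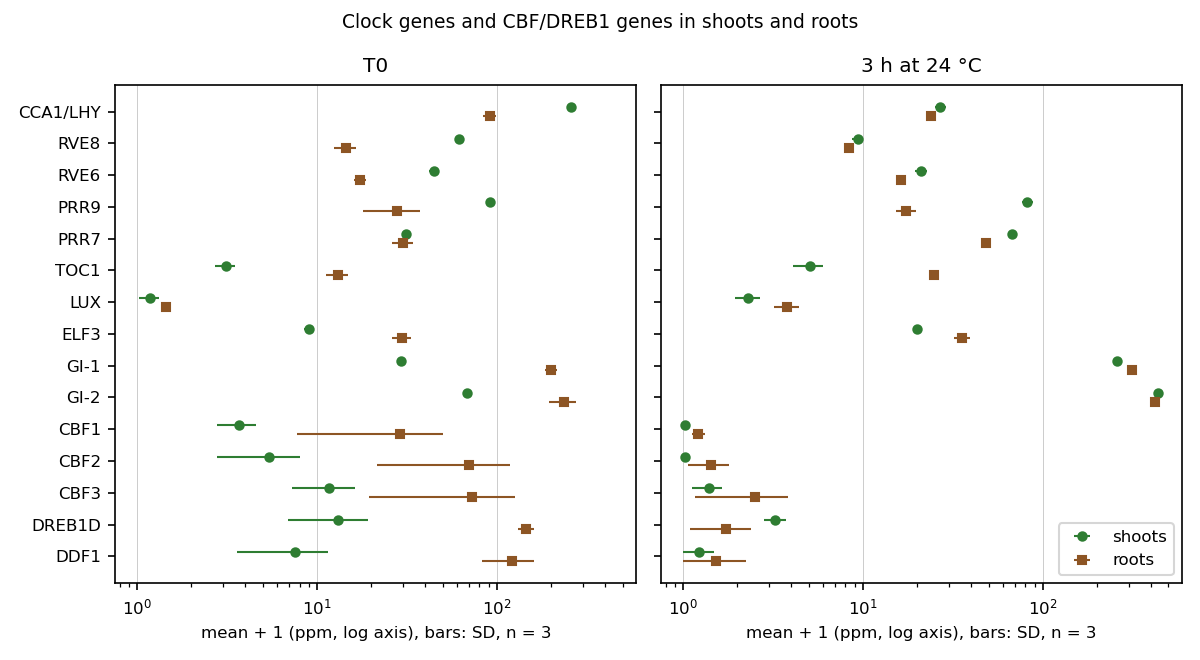
Mean level plus 1 (ppm, log axis, bars SD, n = 3) of the 10 clock genes of the study's set and 5 CBF/DREB1 genes, at T0 (left panel) and after 3 h at 24 °C (right panel), with shoots as green circles and roots as brown squares. At T0 the CCA1/LHY, RVE and PRR9 means are higher in shoots and the GI and CBF means higher in roots, and after 3 h the GI and CCA1/LHY means lie close together and the CBF means are below 3 ppm.

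Of the 6 genes that the study followed for cryoprotectant synthesis, a set named by the study for its response to cold, 4 were higher in roots and 0 in shoots. TPS7 (Solyc02g072150), of trehalose synthesis, had 133, 116 and 129 ppm in the shoot libraries, against 673, 650.3 and 383 ppm in the root libraries. The HAD hydrolase (Solyc04g072920) had 9.01, 8.55 and 6.87 ppm in the shoot libraries, against 104.7, 95.1 and 122 ppm in the root libraries. GolS2 (Solyc02g084980), galactinol synthase, which supplies the raffinose pathway, had 5.29, 3.92 and 3.18 ppm in the shoot libraries, against 54.5, 48.2 and 48.2 ppm in the root libraries. SAMDC2 (Solyc02g089610), of polyamine synthesis, had 212, 173 and 143 ppm in shoots and 686, 670.1 and 543 ppm in roots and lost its call under the other scaling. Raffinose synthase (Solyc02g086530) averaged 4.08 ± 2.02 ppm in shoots and 4.29 ± 1.87 ppm in roots. The ADC2 gene of that set (Solyc01g110440) stayed under 1 ppm, while the other ADC2 id (Solyc10g054440), arginine decarboxylase of polyamine synthesis, averaged 836 ± 180 ppm in shoots and 905 ± 89.3 ppm in roots. At 3 h in 24 °C, TPS7 averaged 58.3 ± 2.15 ppm in shoots and 95.2 ± 22.01 ppm in roots and GolS2 1.48 ± 0.437 ppm in shoots and 4.61 ± 1.2 ppm in roots, with no call for either, whereas the HAD hydrolase kept its call.

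The named genes with the largest values, not corrected for length, were shared by the organs in part. LeEF1a (Solyc06g005060), translation elongation factor 1-alpha, had 2074, 2083 and 2091 ppm in shoots and 3250.3, 3410.3 and 3646 ppm in roots and was not called, at a log2 ratio of -0.72. PAL1 (Solyc09g007900), phenylalanine ammonia-lyase at the entry to lignin and phenolic synthesis, had 564, 572 and 396 ppm in the shoot libraries, against 1983, 1795 and 1984 ppm in the root libraries, and it was called higher in roots. AAP2 (Solyc06g060110), an amino acid permease, averaged 143 ± 26.3 ppm in shoots and 860.3 ± 51.8 ppm in roots and was root-high at T0 but not called at 3 h. ACA2 (Solyc02g064680), a calcium pump, averaged 749.6 ± 360.3 ppm in shoots and 1069 ± 57.4 ppm in roots. RBOHD (Solyc03g117980), an NADPH oxidase, averaged 403 ± 166 ppm in shoots and 1059 ± 75.6 ppm in roots, TET8 (Solyc07g006280), a tetraspanin, 416 ± 115 ppm in shoots and 915 ± 43.9 ppm in roots, and ERD15 (Solyc10g079820) 459 ± 31.6 ppm in shoots and 697 ± 199 ppm in roots. These 4 were not called.

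Ids listed in only 1 table have no value for the other organ and were described within their own table. The shoot table alone listed 1408 Solyc ids, which held 1.28% to 1.36% of its T0 shoot values (replicates 1 to 3), with a median of 1.44 ppm of that table. The root table alone listed 1629 ids, which held 2.66% to 3.04% of its T0 values, with a median of 2.57 ppm. Of these, 51 shoot-only and 56 root-only ids have a name. The largest shoot-only named ids were CP12 (Solyc01g079470), a regulator of the Calvin cycle, at 68.1 ± 2.98 ppm, PGR5-LIKE A (Solyc08g007770), of cyclic electron flow in photosynthesis, at 58.4 ± 6.18 ppm, DFL2 (Solyc08g068490), at 41.9 ± 21.1 ppm, CCL (Solyc09g092110), at 32.9 ± 6.30 ppm, the aquaporin PIP1;4 (Solyc10g054820), at 25.9 ± 6.46 ppm, and CYP83B1 (Solyc11g006590), at 18.6 ± 1.39 ppm. Also in that set were FMA (Solyc05g053660), which in Arabidopsis drives guard cell formation, at 13.3 ± 2.04 ppm, the meristem factor STM (Solyc02g081120), at 12.1 ± 0.607 ppm, and CGA1 (Solyc12g008830), a GATA factor of chloroplast development, at 10.3 ± 1.66 ppm. These 3 were picked after their values were seen.

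The largest root-only named id was FRO4 (Solyc00g026160), a ferric reductase, with 657, 529.7 and 662 ppm in the 3 root libraries. It was followed by a second LBD41 gene (Solyc02g085910), at 28.0 ± 12.5 ppm, bZIP5 (Solyc03g043900), at 23.2 ± 10.9 ppm, HAT7 (Solyc02g067410), at 20.9 ± 1.94 ppm, bZIP65 (Solyc10g080410), at 18.4 ± 6.30 ppm, and EXPA7 (Solyc08g080060), an expansin of root hairs in Arabidopsis, at 16.5 ± 2.49 ppm. Of all ids in either table, 7.40% were in the root table alone and 6.40% in the shoot table alone, and of the 824 named ids 6.80% and 6.19%. Of the LOB family, 6 of its 11 members were in the root table alone and 1 in the shoot table alone, and of the ERF family 12 of 64 and 0. In the other families these were 13 of 75 and 5 for MYB, 6 of 26 and 1 for bHLH, and 5 of 17 and 0 for bZIP. They were 4 of 29 and 0 for WRKY, 4 of 28 and 1 for homeobox, 4 of 26 and 1 for C2H2, 1 of 15 and 0 for NAC, and 0 of 11 and 0 for heat stress factors. The families also hold ids without a name, so the share of named ids is not their exact base.

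Most of the ids with the largest differences have no name. The highest ratios among unnamed ids were those of Solyc02g086820, with 5553, 5462 and 5186 ppm in the shoot libraries, against 8.26, 23.9 and 4.09 ppm in the root libraries, and of Solyc02g085950, with 9761, 9166 and 8841 ppm in shoots and 16.9, 42.5 and 6.18 ppm in roots. The lowest were those of Solyc10g084120, with 0.415, 0.211 and 0.631 ppm in the shoot libraries, against 762.6, 676 and 1296 ppm in the root libraries, and of Solyc03g005530, with 0.188, 0.281 and 0 ppm in shoots and 345.6, 287 and 590.4 ppm in roots. For all 4 ids every library of one organ was at least 203-fold above every library of the other, on values plus 1 ppm.

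Of the 100 ids with the largest shoot means, 83 were called higher in shoots, 2 higher in roots and 15 not called. Of the 100 ids with the largest root means, 47 were called higher in roots and 0 in shoots. Over all common ids the shares were 11.2% for shoots and 13.3% for roots. Both sets were chosen by values that also make the call, which favours calls to their own organ, so the counts are descriptions only. Root calls over all ids also fell from 2530 to 1600 under the other scaling. Within the shoot set, 63 ids had a log2 ratio of at least 5, with means of 1032 to 15075 ppm, and they made up 21.6% of the mean shoot profile. The other 37 had log2 ratios of -2.64 to 4.73, with a median of 1.31. A ratio of at least 5 itself fixes a low root share for the 63, so the share is a description, but it differed between root libraries. The median share was 0.300% in root replicate 1 (interquartile range 0.255% to 0.391%), 0.601% in replicate 2 (0.537% to 0.698%) and 0.205% in replicate 3 (0.121% to 0.307%). After 3 h at 24 °C it was 0.136%, 0.198% and 0.101% in the 3 root libraries. Plastid genes held 0.0239%, 0.0250% and 0.0217% of root replicates 1, 2 and 3 at T0. Whether those reads came from root cells or from shoot RNA was not tested.

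Called ids were spread over the genome. The chromosome number carried in the id gave between 9.69% and 13.1% of ids higher in shoots, and between 11.3% and 14.8% higher in roots, over chromosomes 1 to 12. There were 4 runs of at least 4 successive ids with the same call and an average difference of 8-fold or more for each. On chromosome 2, a run of 6 unnamed ids had shoot means of 3014 to 6874 ppm and root means of 8.02 to 22.2 ppm. On chromosome 8, 5 ids that end with OSM34 were all root-high: the other 4 had shoot means of 0.219 to 1.83 ppm and root means of 42.5 to 296.7 ppm. Another run on chromosome 8 and one on chromosome 9 held 4 shoot-high ids each. Members of such runs may be close copies that share reads, which was not tested.

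The organ differences were largely found again in other libraries of the same tables. The separate normalisation of the organs, and possibly a batch, would repeat in those libraries, so this recurrence does not separate them from the organ. After 3 h at 24 °C, when 11.3% of ids were higher in shoots and 14.4% in roots, 1778 of the 2119 shoot calls (83.9%) and 1768 of the 2530 root calls (69.9%) were made again, and 6 ids had the opposite call. After 3 h at 4 °C, when 11.0% and 14.8% were called, 1881 shoot calls (88.8%) and 2123 root calls (83.9%) were made again and 0 were opposite. Among the 30 named genes with the most extreme ratios, all 15 shoot-high genes were called in the same direction at both temperatures. Of the 15 root-high genes, 13 were called in the same direction at 24 °C, and CML37 and RRTF1 were not.

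The ids nearest to the 2-fold limit were these. The shoot-high ids just inside it were at 2.00-fold between the nearest libraries, with means of 109.9 ppm in shoots and 40.5 ppm in roots for one and 39.9 ppm in shoots and 16.9 ppm in roots for the other. Those just outside had 24.0 ppm in shoots and 8.97 ppm in roots, and, for WRKY13 (Solyc04g051540), 5.11 ppm in shoots and 0.980 ppm in roots. On the root side, MAP3KA (Solyc11g006000), just inside, averaged 116.8 ppm in shoots and 294.9 ppm in roots. The other id inside had 56.0 ppm in shoots and 129.5 ppm in roots. The 2 just outside had 2.47 ppm in shoots and 13.2 ppm in roots, and 10.5 ppm in shoots and 24.1 ppm in roots.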

How the data were processed

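The shoots and roots of M82 seedlings were profiled by paired-end RNA sequencing. The authors aligned reads with BBMap to the tomato genome and the organelle genomes, counted them per gene with featureCounts, and deposited TMM-normalised values, a signal that is never negative, in a table for shoots and one for roots, each normalised and filtered separately. Columns of a table sum to nearly the same total, and 0.0951% of shoot values and 0.112% of root values above 0 are whole. The deposited values therefore do not give the depth of a library, and no count model was used. The study reports read depths that differed several-fold between libraries, and these were not used here. A further 0 columns of values were left without a sample.

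Values were rescaled to parts per 1000000 (ppm) of the sum over the common Solyc ids with Python 3.11.15, pandas 2.3.3 and numpy 2.4.6, drawn with matplotlib 3.10.9, and called by a 2-fold gap between organs on values plus 1 ppm. No test was made across the tables. Alternatives were another scaling, pseudocounts of 0.1 and 5, filters on low values, a 4-fold gap, the other T0 shoot libraries and each library left out. Same-numbered shoot and root libraries deviated together, with correlations of 0.32, 0.23 and 0.41 over 12713 ids. Shoot 1 and root 2 (0.29) and shoot 2 and root 1 (0.29) did so too, so for replicates 1 and 2 these values do not show that the numbers mark pairs. Replicate 3 of one organ against replicates 1 and 2 of the other gave correlations of -0.38 to -0.30. Replicate 3 thus deviated alike in both organs and unlike replicates 1 and 2. Deviations within an organ sum to 0, so these correlations are not independent, and what replicate 3 shares was not tested. The main call uses no pairs, and the number was taken as a pairing only in an alternative run. Whether replicates came from separate cultures is not stated beyond the pooling of seedlings, and the spread may be partly technical.

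Names came from the study's text and tables. Named genes were the 15 most extreme called ids in each direction with at least 10 ppm in the higher organ, the 8 named ids of largest value in each organ, the study's clock, CBF and cryoprotectant genes, up to 6 members and the extremes of each list, the 6 largest named ids of each table's own set, and ids beside the 2-fold limit. HY5, HB33, the second PIF1, CIPK11 and MYB94 genes, FMA, STM and CGA1 were added after their values were seen. The members and lists were chosen with earlier results of these data known. Lists for photosynthesis, peroxidases and vascular tissue had too few named ids and were not used here.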

Additional observations from a re-analysis of the deposited data

Results flagged for a closer look

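A set of 6 ids had one order of the organs at T0 and the opposite order after 3 h at 24 °C, with no overlap of libraries at either time. The difference between the times was not tested, because the organs lie in separately normalised tables. FRO2 (Solyc01g094910) had 8.88, 9.92 and 15.7 ppm in shoots and 54.4, 34.9 and 60.4 ppm in roots at T0, and 18.0, 18.8 and 25.6 ppm in shoots and 2.74, 1.32 and 1.76 ppm in roots at 3 h, where its log2 ratio was 2.89. TPPA (Solyc03g083960), a trehalose phosphatase, averaged 61.2 ppm in shoots and 258.3 ppm in roots at T0, and 53.4 ppm in shoots and 21.1 ppm in roots at 3 h, a log2 ratio of 1.30. PP2-A13 (Solyc12g056410) averaged 35.6 ppm in shoots and 128.7 ppm in roots at T0, and 71.1 ppm in shoots and 25.5 ppm in roots at 3 h, a log2 ratio of 1.45. The other 3 ids have no name. The id on chromosome 3 had a log2 ratio of 2.36 at T0 and -2.94 at 3 h, the one on chromosome 4 had -2.19 and 1.25, and the one on chromosome 6 had 3.27 and -1.997. In the 3 h libraries at 4 °C, 0 of the 2119 shoot calls and 0 of the 2530 root calls were opposite.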

How the results depend on the processing

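None of the 110 called genes of the naming rule had the opposite call under any alternative run. Leaving out each library in turn gave 2132 to 2345 ids higher in shoots, 2613 to 2958 higher in roots and a median ratio of -0.38 to -0.34, and all 110 called ids of the 180 chosen by the naming rule kept their call, as fewer libraries can only widen the gap. A 4-fold gap left 1114 ids higher in shoots and 878 in roots. The median ratio of all ids was -0.012 with median-ratio scaling, which left 1600 ids higher in roots, -0.14 when the 100 ids of largest value were kept out of the sum, -0.42 with shoot replicates 4 to 6, with a pseudocount of 0.1 and with ids of at least 5 ppm, and -0.26 with a pseudocount of 5. The cause of these shifts was not tested beyond the change of divisor or pseudocount itself.

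Median-ratio scaling kept 98 of the 110 named calls. Under it, members higher in shoots numbered 2 of the wall enzymes, 1 of the heat shock list, 1 of the heat stress family, and 2 each of the calcium, abscisic acid and WRKY lists. Members higher in roots numbered 1 of the light-linked, abscisic acid and NAC lists, 0 of the jasmonate list, 7 of the WRKY family, 5 of the MYB family and 2 of the C2H2 family. Smaller falls left 6 wall enzymes, 12 ERF members, 3 nitrate, 3 uptake and 3 cryoprotectant genes and 4 CBF genes higher in roots. Under the same scaling 82.2% of shoot calls and 74.3% of root calls were made again after 3 h at 24 °C. With shoot replicates 4 to 6, whose plastid share was 2.05% to 2.32%, 103 of the 110 calls were kept. Over all common ids 1984 were then higher in shoots (10.5%) and 3117 in roots (16.4%). Of the main calls, 1794 of 2119 in shoots and 2172 of 2530 in roots were kept. Members higher in shoots then numbered 1 of the meristem list, 0 of the abscisic acid and NAC lists, 1 of the ERF family and 4 of the bHLH family. Members higher in roots numbered 5 of the NAC, 15 of the WRKY, 17 of the ERF, 13 of the MYB, 6 of the C2H2 and 4 of the bZIP family. They numbered 8 of the calcium list and 3 of the uptake genes.

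With the replicate number as a pairing (replicate block, added after the data were seen), in which each same-numbered pair had to differ 2-fold, 2282 ids were higher in shoots and 2913 in roots, and every main call was kept, as a gap over all libraries implies one in each pair. Depth is unknown, so values near 1 ppm carry a counting error that could not be given.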
